A study of Mus musculus with 2 samples.

Results

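The genes described here are 38 interferon-stimulated antiviral genes, given as a list of symbols and found by symbol in a table of 27179 gene rows. Each of the 38 had exactly 1 row. The list was chosen with earlier results of these data known. They were measured by poly-A RNA sequencing in MIN6, an insulin-secreting line from a mouse insulinoma used to model beta cells of the pancreas. Both groups received adenovirus (multiplicity of infection 100) and were taken 72 to 96 h after it. In the C2cd4a-GFP group the virus carried a fusion of C2cd4a and GFP, the green fluorescent protein, and in the control-GFP group the control construct. The treatment text of both samples names the C2cd4a-GFP virus, so the groups follow the titles and characteristics. No cells without virus are among the samples, and a response to the infection that both groups share cannot be seen in their ratio. The promoter of the construct is not stated. There was 1 library per group, so no difference below has a replicate check.

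Interferons are secreted when a cell detects viral nucleic acid, for example through the cytosolic RNA helicases RIG-I and MDA5. Type I interferon binds the receptor pair Ifnar1 and Ifnar2, the kinases Jak1 and Tyk2 are activated, and a complex that includes Stat2 and Irf9 binds the interferon-stimulated response element (ISRE) of target promoters. Interferon gamma instead acts through the gamma-activated site (GAS). The induced proteins sense more viral RNA, degrade or sequester it, block translation, membrane fusion or budding, and recruit lymphocytes. In beta cells this programme has been studied mainly in enterovirus infection and autoimmune diabetes.

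The libraries held 30164106 counts (C2cd4a-GFP) and 31039999 counts (control-GFP), and levels are given as CPM, the counts scaled by library size and TMM factor. C2cd4a itself was at 1608 CPM with the fusion and at 4.35 CPM without it. All 9 beta-cell markers examined had a mean of at least 1 CPM. A ratio below 1 was seen in 8 of them, against 50.8% of all genes at that level. In the authors' deposited table the log2 fold change was below 0 for 6 of the 9 (6876 of all 14619 genes). The other 3, Pdx1 (0.13), Nkx6-1 (0.03) and Mafa (0.08), were above 0. Of the 9, the authors' deposited table has 3 that fell at an adjusted p under 0.05 and 0 that rose. The 3 that fell were Ins1 (log2 fold change -0.67, adjusted p = 0.0037), Slc2a2 (-0.81, 7.6e-14) and Ucn3 (-0.45, 0.000815). Among all genes of that table, 6.58% fell and 7.00% rose. Of 11 immune cell markers only Cd68 reached a mean of 1 CPM, and the summed level of the 11 was 3.82 CPM against 2.81 CPM. The 6 acinar and ductal markers were all at 0. Of 6 fibroblast markers 0 reached 1 CPM, of 4 endothelial markers 1 did, and of 5 alpha and delta cell markers 2 did, with a summed level of 79.3 CPM against 53.1 CPM. Gcg, the glucagon gene, made up most of that sum. By the authors' deposited table it rose (0.49, adjusted p = 1.51e-05). Ratios are C2cd4a-GFP over control-GFP on the log2 scale, with a 95% exact interval that covers counting error only.

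Most of the antiviral genes were somewhat lower in the C2cd4a-GFP library, few by a large factor. Ifi27 and Usp18, the most abundant of them, were nearly level, while the next by mean CPM, Irf1 and Ifi35, had ratios of -0.43 and -0.31. Of the 38, 29 reached a mean of 1 CPM. Of these 29, 25 had a ratio below 1, against 50.8% of all 12759 genes of at least 1 CPM. The median log2 ratio of the 29 was -0.34, with quartiles of -0.48 and -0.07, and that of all genes was -0.01. The counting interval lay wholly below equality for 16 of the 29 (33.0% of all genes) and wholly above it for 1, Eif2ak2 (30.6% of all genes). A size rule, which asks for a 1.5-fold difference and an interval that leaves out equality, called 5 lower and 0 higher, where 4.23% of all genes were called lower and 4.23% higher.

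The authors' deposited table, which gives DESeq2 adjusted p-values over 14619 genes, has an adjusted p for 33 of the 38. Below, a gene fell or rose if its adjusted p there was under 0.05. Of the 33 in the authors' deposited table, 11 fell and 0 rose, against 6.58% falling and 7.00% rising among all its genes. The 11 were Cxcl10, Gbp2, Dhx58, Xaf1, Bst2, Oasl2, Ddx58, Rsad2, Oasl1, Irf1 and Parp9. A further 22 were tested there and did not pass, and the remaining 5 (Zbp1, Tlr3, Oas3, Ifitm3 and Ifi44) have no adjusted p. How many libraries stand behind the authors' values is not stated. The table has an unadjusted p of 0.845 for Ifnb1, which was at 0 counts in both libraries here. The authors' values may also draw on this pair, so the pair and the table are not taken as independent.

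**Figure D1:**
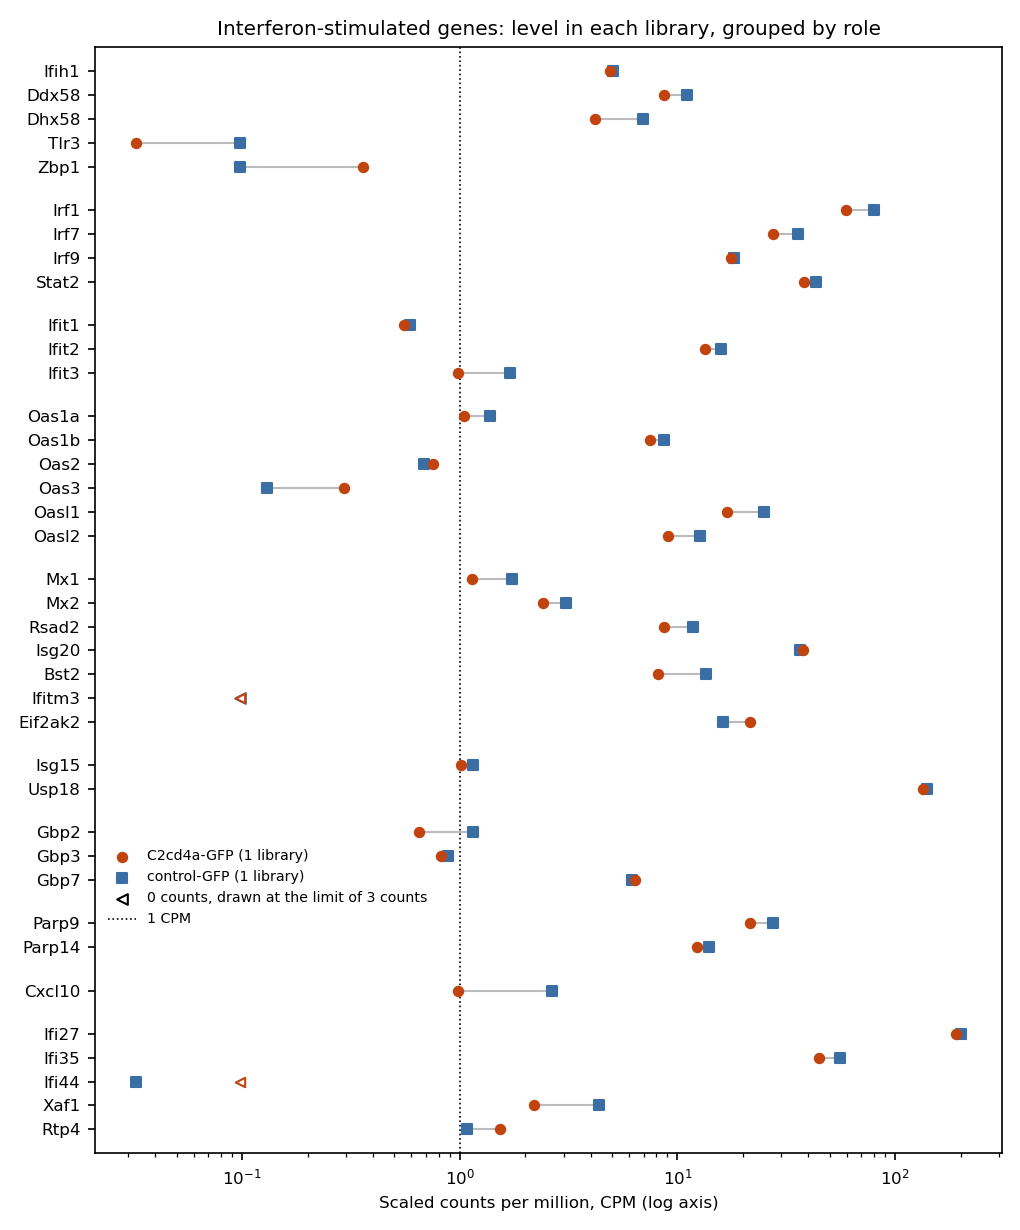
Level (CPM, log axis) of each of the 38 genes in the C2cd4a-GFP library (circles) and the control-GFP library (squares), grouped by role. Open triangles mark 0 counts, drawn at the limit of 3 counts. Levels run from 0 counts for Ifitm3 to 191 and 200 CPM for Ifi27, and most circles lie left of their squares.

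Start windows of these genes were searched for the letters of both response elements. RefSeq windows (build GRCm38.p6) from 250 bases before to 50 bases after the annotated start were available for 27 of the 38 genes. The ISRE was searched as GAAANNGAAA and the GAS as TTCNNNGAA, each on both strands. ISRE letters were found in 16 of the 27 windows (59.3%), against 3.44% of 18457 windows, 1 for each gene of the count table that has any. GAS letters were found in 8 of the 27 (29.6%), against 7.86% of all windows. The 2 motifs can overlap, and a match of letters is not a bound site. The stretches below lie before the annotated start, outside the transcript, and are written 5′ to 3′ on the strand of the gene. Capitals mark the ISRE letters, which appear as their reverse complement where the match is on the opposite strand. The first 4 are from genes that fell in the authors' deposited table:
Cxcl10, chr5:92349078-92349117, minus strand: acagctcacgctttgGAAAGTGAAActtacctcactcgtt
Bst2, chr8:71537572-71537617, minus strand: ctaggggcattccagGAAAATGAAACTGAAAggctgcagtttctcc
Rsad2, chr12:26456548-26456587, minus strand: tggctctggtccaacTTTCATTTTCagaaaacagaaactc
Gbp2, chr3:142620589-142620628, plus strand: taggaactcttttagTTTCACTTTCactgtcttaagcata

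The next 3 are from genes that carry the same letters and did not pass there. Isg15 holds 3 overlapping matches and Ifit1 a pair of separate ones:
Isg15, chr4:156200860-156200911, minus strand: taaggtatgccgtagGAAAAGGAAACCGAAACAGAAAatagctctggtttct
Ifit1, chr19:34640770-34640828, plus strand: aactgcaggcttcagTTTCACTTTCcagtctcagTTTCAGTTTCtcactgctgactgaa
Gbp7, chr3:142530268-142530307, plus strand: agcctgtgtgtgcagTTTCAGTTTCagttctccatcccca

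Irf1 had no ISRE letters in its window and is shown for its GAS letters, here in capitals:
Irf1, chr11:53769909-53769947, plus strand: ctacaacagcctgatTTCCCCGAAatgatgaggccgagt

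Genes with and without ISRE letters overlapped in their ratios. The 11 genes of at least 1 CPM with the letters had a median log2 ratio of -0.34 and ran from -1.43 to 0.41. The 9 whose window lacked them had a median of -0.38 and ran from -1.0 to 0.06. By the authors' deposited table, 5 of 14 tested genes with the letters fell, as did 4 of 9 without them and 2 of 10 with no window. Over all genes of that table, 6.58% fell. Cxcl10, with its match far upstream, fell, and so did Oasl1, Oasl2 and Xaf1, whose windows hold neither motif.

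**Figure D2:**
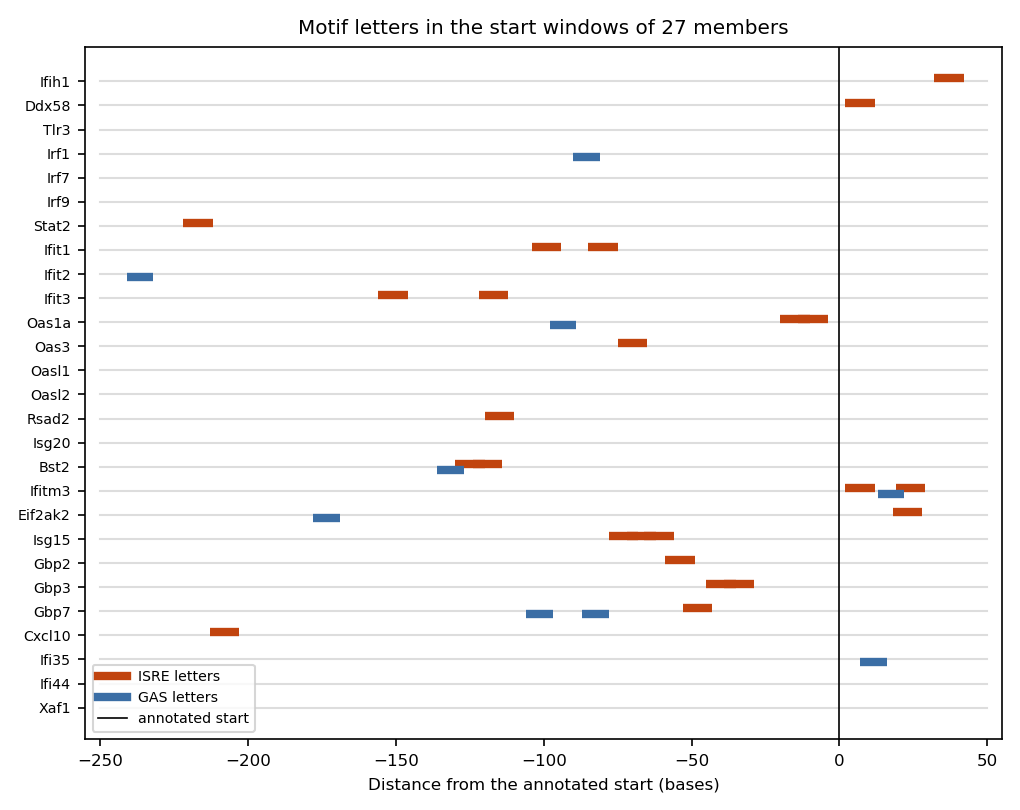
Positions of ISRE letters (upper marks) and GAS letters (lower marks) in the start windows of 27 genes, as distance in bases from the annotated start. ISRE letters occur in 16 windows, most of them before the start, and GAS letters in 8.

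Of the helicase sensors of viral RNA, Dhx58 and Ddx58 fell, and Ifih1 did not pass. Dhx58 (LGP2), a helicase that modulates MDA5 and RIG-I, had 128 counts with C2cd4a-GFP against 212 with control-GFP, or 4.18 and 6.93 CPM. Its log2 ratio was -0.73 (-1.06 to -0.41), a 1.66-fold lower level, and it fell in the authors' deposited table (log2 fold change -0.86, adjusted p = 1.54e-05). Ddx58 (RIG-I) also fell there (-0.47, adjusted p = 0.0332), with 266 counts against 337 and a ratio of -0.34 (-0.58 to -0.11) in the pair. Ifih1 (MDA5), the sensor of long double-stranded RNA, had 150 counts against 155, a ratio of -0.05 (-0.38 to 0.28). This interval holds equality and also the ratio of Ddx58. The authors' deposited table has 0.07 for Ifih1 (adjusted p = 0.869). With the trends of ratios with exon length and GC content removed, Ifih1 was at -0.34, Ddx58 at -0.53 and Dhx58 at -0.61.

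The other sensors were barely detected in these cells. Tlr3, the endosomal receptor for double-stranded RNA, had 1 count against 3. Zbp1, which binds Z-form nucleic acid and can trigger necroptosis, had 11 counts against 3, with a ratio whose interval runs from -0.05 to 4.35 and holds equality. Both lie under 1 CPM and lack an adjusted p. For Zbp1 the authors' deposited table gives an unadjusted p of 0.00396 and normalized values of 9 and 1.

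The transcription factors were expressed in both libraries, and Irf1 was the one that fell. Irf1, an early activator of interferon responses, had 1823 counts against 2446 (59.5 and 80.0 CPM). Its ratio was -0.43 (-0.51 to -0.34), with -0.42 in the authors' deposited table (adjusted p = 0.000341). Irf7, the amplifier of interferon alpha expression, was at -0.38 (-0.52 to -0.25) in the pair, with 845 counts against 1101, but the authors' deposited table has it above the threshold (-0.25, adjusted p = 0.325).

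Both partners of the ISRE-binding complex on the list were closer to equality. Stat2 had 1169 counts against 1319, a ratio of -0.18 (-0.29 to -0.06), and Irf9 had 539 against 554, a ratio of -0.04 (-0.22 to 0.13). The authors' deposited table calls neither, with adjusted p of 0.253 and 0.43.

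The IFIT proteins bind viral RNA or translation factors, and their genes lie in a block of 99.3 kb on chromosome 19 (34550694 to 34650009, build mm10, as for all gene positions below). Levels within the block differed widely. Ifit2 had 410 counts against 486, 13.4 and 15.9 CPM, and a ratio of -0.25 (-0.44 to -0.05). Ifit3 had only 30 against 52 and met the size rule at -0.80 (-1.49 to -0.12), whereas Ifit1 had 17 against 18 and lay under 1 CPM. None of the 3 fell in the authors' deposited table, where Ifit2 has an adjusted p of 0.0562 and Ifit3 of 0.101. Ifit3 and its close copy Ifit3b, which had 17 counts against 32, may share reads, so the division between them is uncertain.

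Enzymes of the OAS family can make the messenger that activates RNase L, and mouse Oasl1 is among the members that lack this activity. Both OAS-like genes fell, and none of the others passed the test. Oasl1, which in mouse restrains translation of Irf7, had 520 counts against 762 (17.0 and 24.9 CPM), a ratio of -0.55 (-0.72 to -0.39), and fell in the authors' deposited table (-0.45, adjusted p = 0.000667). Its neighbour Oasl2, within the same 41.0 kb of chromosome 5 (114896934 to 114937911), had 277 against 387, a ratio of -0.48 (-0.71 to -0.26), and fell too (-0.49, adjusted p = 0.00575). At a 1.47-fold lower level, Oasl1 lay just outside the size rule.

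The 4 OAS genes proper, in 177 kb of the same chromosome (120730333 to 120907525), showed no call in the authors' deposited table. Oas1b, which confers flavivirus resistance in some mouse strains, had 230 counts against 266 and Oas1a 32 against 42, with ratios of -0.21 (-0.47 to 0.05) and -0.39 (-1.11 to 0.30). Oas2 had 23 against 21 and Oas3 9 against 4, both under 1 CPM. Intervals that hold equality, as here, do not show equal levels. Oas1c, a further gene of the locus outside the list, fell in the authors' deposited table (-0.82, adjusted p = 6.38e-07), with 335 counts against 540.

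Among the other effectors, Bst2 and Rsad2 fell, while Eif2ak2 was the only gene of the list with an interval above equality. Bst2 (tetherin), which holds budding virions at the cell surface, had 249 counts against 413 (8.13 and 13.5 CPM). Its ratio of -0.73 (-0.96 to -0.50) met the size rule, and it fell in the authors' deposited table (-0.54, adjusted p = 0.0335). With the trends of exon length and GC content removed, its ratio was -0.47 and the size rule no longer called it. Rsad2 (viperin), a radical SAM enzyme that makes a chain-terminating nucleotide, had 265 against 362, a ratio of -0.45 (-0.69 to -0.22), and fell (-0.45, adjusted p = 0.02).

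Eif2ak2 (PKR), the double-stranded RNA-activated kinase that stops translation through eIF2-alpha, went the other way in the pair. It had 660 counts against 497 (21.6 and 16.3 CPM) and a ratio of 0.41 (0.24 to 0.58), short of the size rule at 1.33-fold. The authors' deposited table has 0.23 for it (adjusted p = 0.365), short of the threshold. With the trends of exon length and GC content removed, the ratio of Eif2ak2 was 0.19, below its counting interval. Isg20, an RNA exonuclease, was near level at 1160 against 1113 counts and a ratio of 0.06 (-0.06 to 0.18). With both trends removed, the ratio of Isg20 was 0.32, above its counting interval.

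The dynamin-like GTPases were low. Mx1, which blocks influenza virus in the nucleus and is defective in many inbred mouse strains, had 35 counts against 53, and Mx2 had 74 against 94. Their ratios of -0.60 (-1.26 to 0.04) and -0.35 (-0.81 to 0.11) had intervals holding equality, and neither passed in the authors' deposited table (adjusted p of 0.0704 and 0.495). Ifitm3, which hinders fusion of viruses in endosomes, was at 0 counts in either library, where counting leaves room for 0.0980 CPM (C2cd4a-GFP) and 0.0981 CPM (control-GFP).

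Usp18 was abundant and near level, and its substrate Isg15 was scarce, with a ratio that the counts do not resolve. Usp18 removes Isg15 from proteins and also damps signalling at Ifnar2. It had 4123 counts against 4275, a ratio of -0.05 (-0.12 to 0.01), and per kilobase of exon it stood at 76.0 and 78.9 CPM, above 90.8% of all genes of at least 1 CPM. Isg15, the ubiquitin-like modifier, had 31 against 35 counts and 1.34 and 1.51 CPM per kilobase, above 12.1% of genes, with a ratio of -0.18 (-0.92 to 0.56). The authors' deposited table calls neither (adjusted p of 0.853 and 0.522). The exons of Usp18 (chromosome 6, 121245906 to 121270917) share 406 bases with an unnamed gene row on the opposite strand that had 3 and 2 counts.

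The guanylate-binding proteins, GTPases that attack the membranes around intracellular pathogens, lie in 108 kb of chromosome 3 (142530338 to 142638008). Gbp2 fell in the authors' deposited table by -1.07 (adjusted p = 0.0203), from normalized values of 41 to 19. In the pair it had 20 counts against 35, under a mean of 1 CPM, and its interval (-1.68 to 0.02) just holds equality. Gbp7 had 195 against 189 counts and Gbp3 25 against 27, and neither passed there. Members of this family resemble each other, and how their reads were divided is uncertain.

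Of the PARP pair, Parp9 fell. Parp9, which acts with the ubiquitin ligase Dtx3l, had 662 counts against 845 (21.6 and 27.6 CPM), a ratio of -0.35 (-0.50 to -0.21). Its log2 fold change in the authors' deposited table is -0.39 (adjusted p = 0.00865). Dtx3l, on the opposite strand and sharing 334 exon bases with Parp9, had 653 against 718 and a ratio of -0.14 (-0.29 to 0.02). The strand setting of the counting is not stated, so reads in those bases cannot be assigned with certainty. Parp14, a mono-ADP-ribosyltransferase in the same 140 kb of chromosome 16 (35832878 to 35972621), was at -0.17 (-0.38 to 0.03).

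Cxcl10, the chemokine that attracts Cxcr3-bearing T cells, had the lowest ratio of the 29. It had 30 counts with C2cd4a-GFP against 81 with control-GFP, 0.980 and 2.65 CPM, a 2.70-fold lower level and a ratio of -1.43 (-2.09 to -0.81). The authors' deposited table has -1.26 (adjusted p = 3.65e-05), with normalized values of 35 and 85. The gene (chromosome 5, 92346638 to 92348889) is a low-abundance transcript here, and its interval is accordingly wide.

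The remaining interferon-induced genes differed widely in ratio. Xaf1, an antagonist of the apoptosis inhibitor XIAP, had 67 counts against 134 (2.19 and 4.38 CPM), a 2.00-fold lower level with a ratio of -1.0 (-1.45 to -0.57), and fell in the authors' deposited table (-0.68, adjusted p = 0.0118). Rtp4, a receptor chaperone, had 47 counts against 33, the highest ratio of the 29 at 0.51 but with an interval (-0.16 to 1.2) that holds equality. Ifi44 had 0 counts against 1.

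Ifi27 and Ifi35 were abundant. Ifi27 had 5851 counts against 6128, or 182 and 190 CPM per kilobase, above 96.7% of all genes of at least 1 CPM, and a ratio of -0.07 (-0.12 to -0.02). Removing the trend of ratios with exon length moved it to 0.05, so its direction depends on that choice. Ifi35, which forms a complex with Nmi, had 1371 against 1703 and a ratio of -0.31 (-0.42 to -0.21), whereas the authors' deposited table has only -0.06 for it (adjusted p = 0.865).

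**Figure D3:**
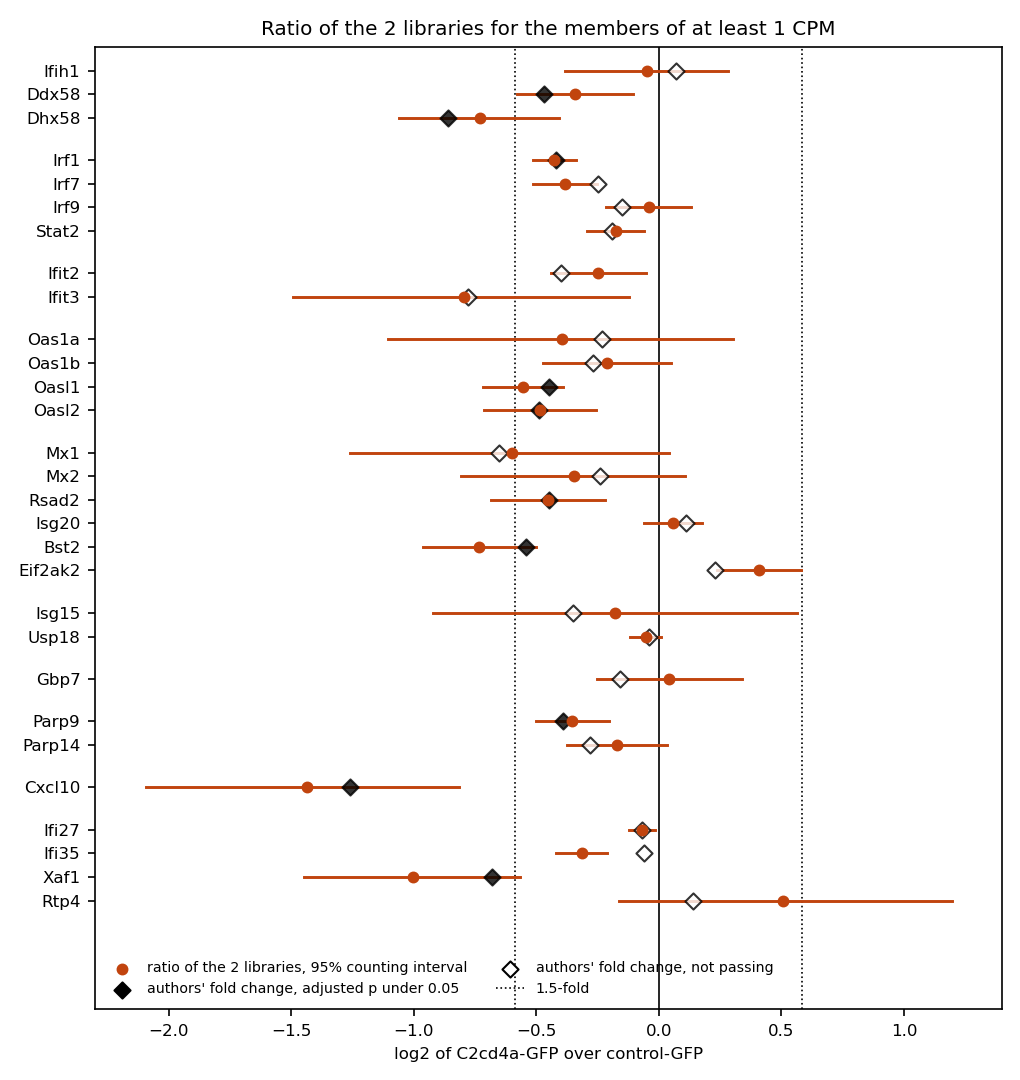
log2 ratio of the C2cd4a-GFP over the control-GFP library for the 29 genes of at least 1 CPM (circles, with 95% counting intervals) and the log2 fold change in the authors' deposited table (diamonds, filled where the adjusted p is under 0.05). Dotted lines mark 1.5-fold. Cxcl10 lies farthest left at -1.43, Usp18 and Ifi27 lie next to 0, and Eif2ak2 is the one gene with an interval above 0.

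The summed level shows how far the abundant genes carry the group. Ifi27 and Usp18 alone held 45.9% of the 21723 counts of the 38 genes in the C2cd4a-GFP library and 42.3% of the 24611 in the control library. The sum of these 2 genes differed by a ratio of -0.06 (-0.10 to -0.02). The sum of the other 36 went from 465 CPM in the control library to 384 CPM in the C2cd4a-GFP library, a ratio of -0.28 (-0.31 to -0.24). For all 38 the sum went from 804.8 CPM to 709.5 CPM, a ratio of -0.182 (-0.208 to -0.155). Of the 5 genes called by the size rule, only Bst2 and Dhx58 had a mean of at least 5 CPM.

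Of the 5 size-rule calls, 4 (Cxcl10, Xaf1, Bst2 and Dhx58) also fell in the authors' deposited table, and Ifit3 did not. All 11 genes that fell there had a ratio below 1 in the pair, and 10 of them an interval wholly below equality, Gbp2 being the exception. A further 6 genes (Irf7, Stat2, Ifit2, Ifit3, Ifi27 and Ifi35) had such an interval in the pair without a call in the authors' deposited table. Across all genes the ratio increased with exon length (Spearman's rho 0.332, 12759 genes) and decreased with GC content (rho -0.461, 12358 genes), both of which are descriptions across genes. The 29 genes had a median exon length of 2422 bases against 2877 for all genes of at least 1 CPM, and a median GC content of 50.4% against 49.8%. With both trends removed, their median ratio was -0.34 and that of all genes -0.03.

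**Figure D4:**
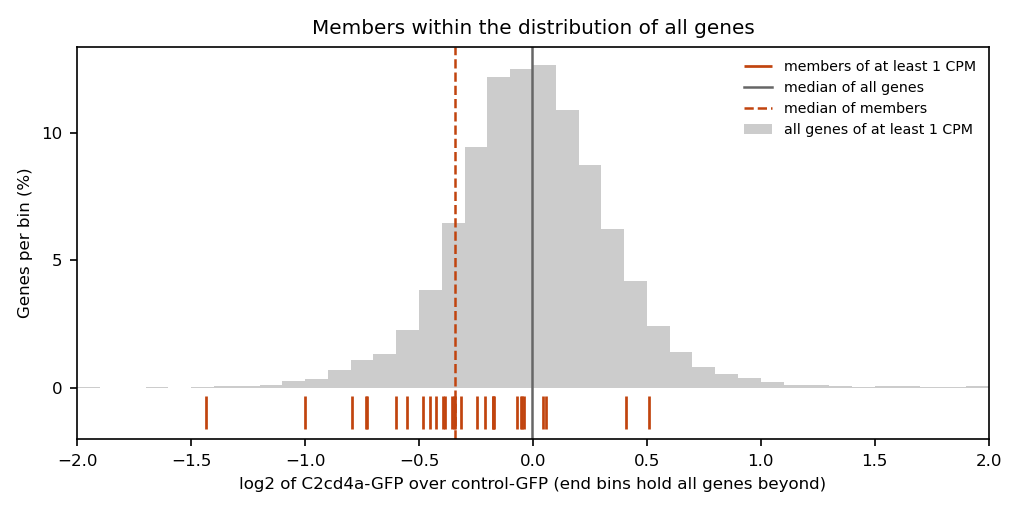
Distribution of the log2 ratio over all 12759 genes of at least 1 CPM (grey bars, percent of genes per 0.1 unit) with the 29 interferon-stimulated genes as ticks below. The median of the 29 is -0.34 (dashed) and that of all genes -0.01 (solid).

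Genes upstream of the list were examined next, to see which parts of the pathway moved with it. No interferon transcript was detected beyond 3 counts: of 11 ligand genes, 10, Ifnb1 among them, were at 0 in both libraries, and Ifnl2 had 3 counts against 0. The limit for a count of 0 is the one given for Ifitm3. The authors' deposited table gives none of the 11 an adjusted p.

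Receptors and kinases of the type I pathway were level or lower in the pair without a call, while several other STAT genes fell. Ifnar1 was at 0.02 (-0.09 to 0.13) with 1428 counts against 1407, and Jak1 at 0.00 (-0.05 to 0.05). Ifnar2 had 170 against 242, a ratio of -0.51 (-0.80 to -0.22), and Tyk2 was at -0.34 (-0.46 to -0.22), and neither had a call from the authors' deposited table (adjusted p of 0.469 and 0.246).

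Of 13 receptor, JAK and STAT genes with an adjusted p, the authors' deposited table has 4 that fell and 0 that rose, where 6.58% and 7.00% of all its genes did. By the authors' deposited table the 4 were Stat3 (-0.40, adjusted p = 0.0268), Stat5a (-0.36, 0.0235), Stat5b (-0.34, 0.0351) and Stat6 (-0.50, 0.0001). The median ratio of 13 such genes of at least 1 CPM was -0.34 in the pair.

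Adaptors and kinases of sensing showed 2 falling and 0 rising of 14 in the authors' deposited table (6.58% and 7.00% over all its genes), with a pair median of -0.12 over 13 genes. Unc93b1, the chaperone that carries Tlr3 and other nucleic acid-sensing receptors to endosomes, had 237 counts against 433, a ratio of -0.87 (-1.11 to -0.64), and fell (-0.70, adjusted p = 1.79e-05). Ticam1, the Tlr3 adaptor also known as TRIF, was at -0.55 (-0.71 to -0.39) and fell as well (-0.50, adjusted p = 0.000916). Myd88 was at -0.38 (-0.52 to -0.24), Irf3 at -0.27 (-0.40 to -0.15) and Mavs, the adaptor of RIG-I and MDA5, at -0.20 (-0.42 to 0.02), and none of these 3 passed in the authors' deposited table.

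Negative regulators showed 0 falling and 0 rising of 16 in the authors' deposited table, and a pair median of -0.06 over 15 genes. Over all genes of that table, 6.58% fell and 7.00% rose. Ptpn2, a phosphatase that acts on Jak1, was at 0.34 (0.23 to 0.46), Irf2bp1 at -0.31 (-0.40 to -0.23) and Nlrx1 at -0.48 (-0.82 to -0.14). Socs1, the feedback inhibitor of JAK kinases, had 36 counts against 51 and a ratio of -0.50 (-1.16 to 0.14).

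A wider set of 69 interferon-stimulated genes outside the 38 had a median nearer equality. Of the 50 with an adjusted p, the authors' deposited table has 6 that fell and 1 that rose. Among all genes of that table, 6.58% fell and 7.00% rose. The share of the 50 that fell was 12%, against 33.3% of the 33 above. The difference between these shares was not tested. The median ratio of 41 such genes of at least 1 CPM was -0.10, with 6 lower and 2 higher by the size rule (4.23% of all genes each way).

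The leading genes of this wider set went both ways. Ifitm2, a relative of Ifitm3, had 219 counts against 423, a ratio of -0.95 (-1.19 to -0.71), and fell in the authors' deposited table (-0.71, adjusted p = 0.000418). Sp110, a nuclear body protein, had 194 against 92, a ratio of 1.07 (0.71 to 1.45), and was the one that rose (0.92, adjusted p = 1.46e-05). The third by this ranking, Oas1c, is given above.

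**Figure D5:**
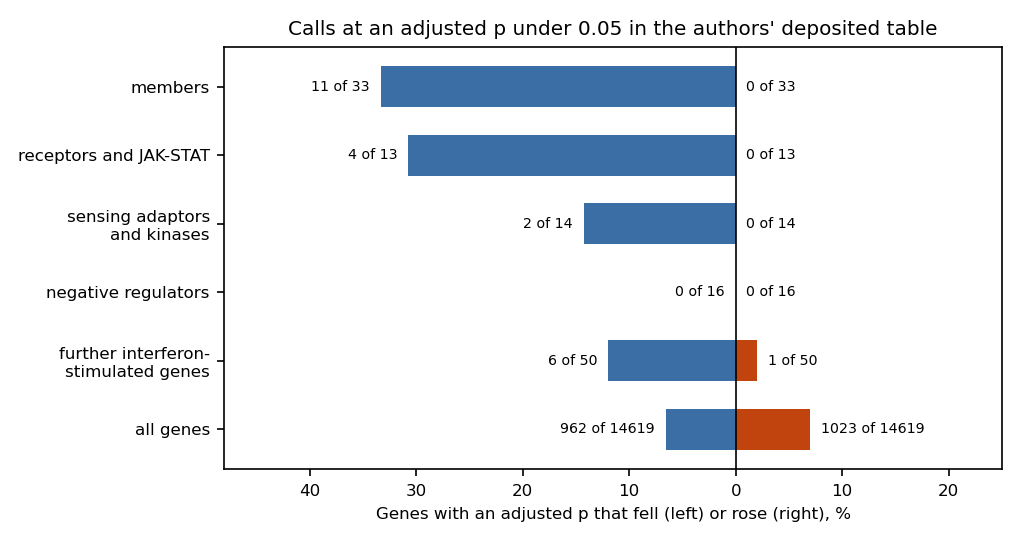
Share of genes with an adjusted p that fell (left) or rose (right) in the authors' deposited table, for the 38 interferon-stimulated genes, 4 further lists of the pathway and all genes, with the counts at the bars. The members have 11 of 33 falling and 0 rising, against 962 and 1023 of 14619 for all genes.

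Libraries of whole cultures do not separate fewer cells expressing a gene from less RNA per cell. Itgam, a myeloid integrin gene singled out after its values were seen, was the one immune marker with a call in the authors' deposited table, where it rose (1.86, adjusted p = 0.00372). It had 36 counts against 8. Of the other immune markers, Ptprc had 3 counts against 0, Lyz2 had 7 against 15, Cd3e had 5 against 6, and Adgre1 and Siglech each had 0 against 1. The part of other cell types, or of the shift in islet cell markers, in the ratios above was not tested.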

How the data were processed

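Raw counts per gene for 1 C2cd4a-GFP and 1 control-GFP library were deposited by the authors with exon coordinates and summed exon length. Per the labels' protocols, directional poly-A libraries were read from both ends over 42 bp. The submitters' processing notes list STAR 2.5.2b, featureCounts, Subread 1.5.2, DESeq2 1.14.1 and mm10 and give no role for any of them. The authors deposited a log2 fold change, p-values and adjusted p-values per gene, and a second table with a normalized value (a score, rounded to whole numbers) per gene and group.

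Here the counts were scaled with TMM (edgeR 4.0.16, R 4.3.3), and ratios got exact Clopper-Pearson intervals at the 95% level (SciPy 1.17.1), given the sum of both counts. These intervals hold the counting error alone, and 3 counts are the limit for a gene at 0. No test across libraries was run, as each group has 1. Factors and the shares called were computed over all 27179 gene rows, including 847 that have no symbol. The procedure was tested on simulated counts.

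The 38 genes and the further lists were chosen with earlier results of these data known. All 38 are named. Each further list contributes the 3 genes with the interval bound farthest from equality, among those with a mean of 1 CPM or more, beside a fixed set (Ifnar1, Ifnar2, Jak1, Tyk2, Irf3, Mavs, Ifnb1, Socs1 and C2cd4a). Some items of these lists are not reported here. Dtx3l, Ifit3b, Stat5b, Ifnl2 and the markers were added after their values were seen. The alternatives were another scaling (upper quartile, total counts, or size factors from DESeq2 1.42.0), another CPM minimum, size rule, prior count or p threshold, the mean in place of the median, and removal of the trend with exon length. Leaving out Cxcl10 and removing the trend with GC content as well were added after seeing the data.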

Additional observations from a re-analysis of the deposited data

How the results depend on the processing

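No paired analysis was possible because each group has 1 library. Of the 29 genes of at least 1 CPM, 5 were lower and 0 higher by the size rule, and both numbers held with DESeq2 size factors, total counts, upper quartile factors and the exon length trend removed. They also held with no CPM minimum. With exon length and GC trends removed, 6 were lower and 0 higher: Bst2 lost its call at -0.47, and Mx1 (-0.65) and Rsad2 (-0.64) gained one. A minimum of 5 CPM left 2 lower of 20 genes (2.73% of all genes), and a ratio of at least 2 left 2 (0.69%). A ratio at least 20% below or 25% above equality gave 12 lower and 1 higher (13.5% and 13.9%). The median log2 ratio ran from -0.36 with upper quartile factors to -0.25 with no CPM minimum, and was below that of all genes under each of these settings. It was -0.33 as a mean and -0.33 without Cxcl10. Among the 33 in the authors' deposited table, 11 fell at an adjusted p under 0.05, 6 under 0.01 (3.58% of all genes) and 13 under 0.1 (8.84%). At none of these did any rise, where 3.82% of all genes rose under 0.01 and 9.82% under 0.1.

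Under another scaling or a prior count of 2, the ratio of each of the 29 genes stayed within its counting interval. With the exon length trend removed, 26 did, and with the GC trend also removed, 18. In these fits Ifi27 changed sign, to 0.046 and 0.113, and so did genes whose interval holds equality: Usp18 (0.012 and 0.046), Gbp7 (-0.097 and -0.269) and, with GC also removed, Isg15 (0.041). Irf9 changed sign with total counts (0.002). The cause was not tested. Genes of under 5 CPM have wide intervals, so ratios such as those of Oas1a, Mx1 and Isg15 are not resolved at this depth. No replicate could be left out, and no spread between cultures is known.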
